A study of Mus musculus with 16 samples.

Results

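The comparison described here asks which genes respond more, and which less, to quiescence in Zac1-mutant cells than in wildtype cells. Mouse embryonic fibroblasts (MEFs), connective tissue cells cultured from embryos, were taken from C57BL/6 embryos at E13.5 and grown in DMEM with 10% fetal bovine serum. The wildtype group held 2 lines of genotype Zac+/+ and the mutant group 2 lines of genotype Zac+/-, with the code KOpat in their titles, which the labels do not expand, and each line was harvested as proliferating cells at day 2 and as quiescent cells at days 8, 10 and 12 in vitro. All 16 of the 16 libraries in the series entered the comparison. For each line the change was the log2 CPM (counts scaled to a common library size) of the summed day 8, 10 and 12 counts minus that of its day 2 library, and the genotype difference was the change in the mutant lines minus the change in the wildtype lines. Of 23100 genes in the table, 15740 had enough counts to be tested. The replicate is the line, numbered 1 (letter I in the labels) or 2 (letter L). An SD measures the spread between lines. An SE comes from the edgeR fit, which moderates the spread within groups across genes and does not pair the libraries of a line. It is therefore not the spread of the per-line changes. The labels do not say whether a line came from 1 embryo or from several.

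Quiescence is a reversible arrest in which cells leave the division cycle, lower ribosome production and, in fibroblasts, build extracellular matrix. Zac1, whose gene symbol is Plagl1, is a zinc finger transcription factor expressed from the paternal allele in many embryonic tissues. It is known for inducing cell cycle arrest and for regulating other imprinted genes.

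Promoter sequences are shown for a gene of each direction, Islr with a smaller rise in the mutant lines and Plaur with a smaller fall. They are RefSeq windows on GRCm38.p6, another build than that of the counts, from 250 bases before to 50 after the gene's start. The window of Islr is chr9:58158505-58158804 on the minus strand and that of Plaur is chr7:24462233-24462532 on the plus strand. Capitals mark a match to TGANTCA, the letters bound by AP-1 factors, which respond to growth factors.
Islr: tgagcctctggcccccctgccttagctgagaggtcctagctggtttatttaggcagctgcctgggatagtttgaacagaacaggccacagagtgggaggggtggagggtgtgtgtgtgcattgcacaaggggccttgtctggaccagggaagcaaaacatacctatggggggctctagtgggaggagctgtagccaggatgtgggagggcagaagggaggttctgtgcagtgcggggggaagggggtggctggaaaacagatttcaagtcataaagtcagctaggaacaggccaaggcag
Plaur: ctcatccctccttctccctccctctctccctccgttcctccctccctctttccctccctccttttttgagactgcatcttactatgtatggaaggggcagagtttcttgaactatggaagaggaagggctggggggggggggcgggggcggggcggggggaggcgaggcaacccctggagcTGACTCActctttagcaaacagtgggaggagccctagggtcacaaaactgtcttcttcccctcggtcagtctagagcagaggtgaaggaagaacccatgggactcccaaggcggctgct
Matches were counted on both strands as a description. A named gene counted where any of its promoters matched, while the share of all is per promoter, so the shares differ in unit. Among the 12 genes named below for a smaller mutant change, 10 had a promoter in the RefSeq table, and among the 12 named for a larger one, 9 did. TGANTCA was in 0 of the 10 and in 2 of the 9 (22.2%), those of Plaur and C1qbp, and in 7.81% of 32851 promoters of this length. GGGGCCCC, the core of a G/C-rich consensus described for Plagl1 that reads the same on both strands, was in 0 of the 10, 0 of the 9 and 1.08% of all.

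Total counts ran from 28079241 to 61039793 per library, lowest in mutant replicate 1 at day 2. The targeted gene Plagl1 stood at 9.05 and 7.56 CPM in the mutant lines at day 2 and at 47.4 and 51.5 CPM in quiescence, against 44.7 and 37.4 CPM and then 201 and 163 CPM in the wildtype lines. It rose in both genotypes, and its difference in log2 change was 0.43 (SE 0.21). All 9 fibroblast identity genes were detected in every summed library, at 15.9 CPM or more. The lines did not sort by genotype in their change. Across genes, the median absolute distance between 2 lines' log2 changes was 0.22 for mutant 1 and wildtype 1 and 0.20 for mutant 2 and wildtype 2, which share a letter, against 0.34 between the mutant lines, 0.29 between the wildtype lines, and 0.26 and 0.38 for the pairs that share neither. By root mean square distance mutant 2 and wildtype 2 were again the closest pair, at 0.96, but mutant 1 and wildtype 1, at 1.09, were no closer than the mutant lines at 1.08 or the wildtype lines at 1.06. The labels do not say what the letter marks. Macrophage transcripts differed between lines of the same genotype: the 18 markers, summed, stood at 140 and 18.0 CPM at day 2 and 424 and 54.0 CPM in quiescence in mutant 1 and mutant 2, and at 25.4 and 110 CPM and then 76.8 and 256 CPM in wildtype 1 and wildtype 2. Their part in the results was not tested.

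No gene passed edgeR's test for a different response in the mutant lines. With the quasi-likelihood test and Benjamini-Hochberg adjustment, 0 of 15740 genes (0%) had an adjusted p under 0.05, and 265 genes (1.68%) had an unadjusted p under 0.05. Of these, 91 (0.578% of the genes tested) had a higher change in the mutant and 174 (1.11%) a lower one. Where no gene differs, this threshold passes on average a share of 0.05 of the genes, and 1.68% is below that. limma-voom called 0 genes, with 160 at an unadjusted p under 0.05, and DESeq2 called 1 gene, Islr, at an adjusted p of 0.0063. With 2 lines against 2, an exact permutation test cannot give a two-sided p under 0.333. The differences given for single genes are therefore values with their errors, for genes named by the smallest unadjusted p among those whose lines did not overlap. Both mutant lines lay above both wildtype lines in 1978 genes (12.6%) and below both in 1839 genes (11.7%). If every ordering of the 4 lines is equally likely, a share of 0.333 of genes separates in 1 of the 2 directions. The shares found were together below that. The fitted log2 difference was above 0 in 52% of genes and below 0 in 48%.

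Both genotypes moved largely the same genes in the same direction. In the wildtype lines 3756 genes (23.9%) rose and 3730 (23.7%) fell on entry into quiescence, by edgeR at an adjusted p under 0.05. In the mutant lines 3325 (21.1%) rose and 3308 (21%) fell. A total of 2954 genes rose in both, which was 78.6% of the wildtype and 88.8% of the mutant risers, and 3088 fell in both, which was 82.8% and 93.3% of the fallers. The number called in opposite directions was 0.

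The size of the response was smaller in both mutant lines than in either wildtype line. Over the 6042 genes called in both genotypes, the median absolute log2 change was 0.90 in mutant 1 and 0.91 in mutant 2, against 1.01 in wildtype 1 and 1.00 in wildtype 2. The mutant mean of 0.905 ± 8e-04 (SD, n = 2) was 90.3% of the wildtype mean of 1.00 ± 0.0079 (SD, n = 2). Genes that rose in both had median changes of 1.09 in each mutant line and of 1.22 and 1.15 in the wildtype lines. Genes that fell in both had medians of -0.79 and -0.78 in the mutant lines and of -0.89 in each wildtype line. Of the genes called in both, 2019 risers (68.3%) and 2309 fallers (74.8%) had the smaller change in the mutant. Of all 15740 genes tested, 9640 had it. The least-squares slope of the mutant on the wildtype change across the 15740 genes was 0.80 (Pearson r 0.86). Error in the wildtype change lowers such a slope, so a value below 1 does not by itself show a smaller response. The major-axis slope, which allows for error in both, was 0.92. These are descriptions across genes, which are not independent replicates. For the 4 lines, an exact permutation test of the size could not give a two-sided p under 0.333, and none was run.

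**Figure D1:**
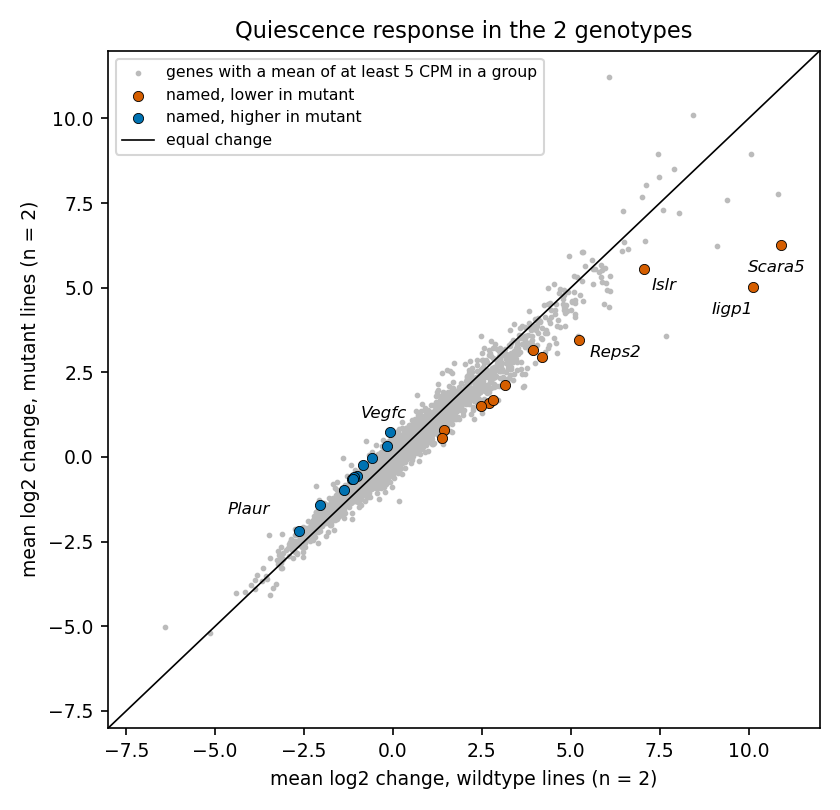
Each point is a gene whose mean reached 5 CPM in 1 or more groups, with the mean log2 change of the 2 wildtype lines on the x axis and of the 2 mutant lines on the y axis (quiescent minus day 2), and the diagonal marks equal change. Named genes with a lower change in the mutant, such as Islr, lie below the diagonal; the positions of Iigp1 and Scara5 depend on the prior count of 0.5.

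The median gap between genotypes changed sign among genes that fell in both, and nearly closed among genes that rose in both. Among genes that rose in both, the median genotype gap in level (mutant minus wildtype, log2) was 0.09 at day 2, with the mutant higher in 70% of genes. In quiescence it was -0.006, with the mutant higher in 47.3%. Among genes that fell in both, the median gap was -0.05 at day 2, with the mutant higher in 30.2%, and 0.04 in quiescence, with the mutant higher in 68.8%. Over all 15740 genes tested, the mutant was higher in 7932 at day 2 and in 8632 in quiescence, with median gaps of 0.0014 and 0.0131. The day 2 gap was the larger of the pair in 63% of these genes.

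The same median over the 6042 genes was smaller in the mutant lines on each quiescent day taken alone, narrowly at days 8 and 12. At day 8 it was 0.85 and 0.87 in the mutant lines and 0.93 and 0.88 in the wildtype lines. At day 10 it was 0.89 and 0.90 against 1.01 and 1.04, and at day 12 it was 1.03 and 1.01 against 1.07 and 1.04. Both mutant lines lay below both wildtype lines on each day, with the widest separation at day 10. The 3 days share the day 2 libraries. The 6042 genes were called on the sum of these days, so a single day is no separate check.

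The 12 genes named for a lower change in the mutant lines all rose in both genotypes, called in each by edgeR. The naming rule used the day 2 level as part of the change: the mutant was higher at day 2 in 12 of these 12 and in 861 of the 885 genes that met the rule in this direction. The day 2 gap was larger than the quiescent gap in 11 of the 12 and in 80.1% of the 885. The edgeR adjusted p of the genotype difference was 1 for each.

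Islr encodes a leucine-rich immunoglobulin superfamily protein of mesenchymal cells. Its level went from 0.937 to 123 CPM in wildtype 1 and from 0.855 to 115 CPM in wildtype 2, while mutant 1 went from 1.70 to 90.4 CPM and mutant 2 from 2.68 to 112 CPM. Both mutant lines lay above both wildtype lines at day 2 and below both in quiescence. The rise was 133.7-fold in the wildtype lines and 44.5-fold in the mutant lines. The difference in log2 change was -1.59 (SE 0.29, unadjusted p = 0.000319 by edgeR). The gap in level was 1.35 (SE 0.24) at day 2 and -0.23 (SE 0.16) in quiescence.

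Cpxm1, a secreted carboxypeptidase-like protein, went from 4.51 to 67.6 and from 4.19 to 66.9 CPM in the wildtype lines and from 6.84 to 68.6 and 7.56 to 59.7 CPM in the mutant lines. The mutant lines started above both wildtype lines, and quiescent levels overlapped. Cpxm1 rose 15.5-fold in the wildtype and 8.88-fold in the mutant lines, a log2 difference of -0.80 (SE 0.17). Itga10, a collagen-binding integrin chain, went from 2.78 to 15.2 and 2.67 to 20.9 CPM in the wildtype lines and from 4.74 to 13.2 and 4.50 to 14.6 CPM in the mutant lines. Both mutant lines were above both wildtype lines at day 2 and below both in quiescence, and the log2 difference was -1.14 (SE 0.26). Slc25a23, a mitochondrial carrier, went from 1.73 to 10.8 and 2.01 to 10.0 CPM in the wildtype lines and from 3.58 to 11.4 and 3.90 to 9.82 CPM in the mutant lines. Its groups were apart at day 2 and overlapped in quiescence, and the log2 difference was -0.96 (SE 0.26).

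Dio2, which activates thyroid hormone, was the one named gene of this direction whose quiescent gap was the larger. It went from 1.38 to 9.13 and 1.02 to 7.79 CPM in the wildtype lines and from 1.30 to 4.45 and 1.76 to 5.39 CPM in the mutant lines. Day 2 levels overlapped, both mutant lines were lower in quiescence, and the gaps were 0.38 (SE 0.27) and -0.78 (SE 0.24). Col24a1, a fibrillar collagen, had a log2 difference of -1.06 (SE 0.33). The others were -0.63 (SE 0.18) for Nynrin, -1.23 (SE 0.35) for the anoctamin Ano5, -0.82 (SE 0.23) for Ccdc8, part of a ubiquitin ligase assembly, and -1.85 (SE 0.55) for Reps2, which takes part in endocytosis. Without mutant replicate 1 the value of Reps2 was -1.08, and without mutant replicate 2 that of Nynrin was -0.41.

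Iigp1 and Scara5 had almost no counts in wildtype cells at day 2. Iigp1, an interferon-inducible GTPase, had 0 counts in both wildtype lines at day 2 and 3 and 12 counts in the mutant lines, and reached 5.63 and 5.56 CPM in the wildtype and 5.90 and 4.54 CPM in the mutant lines. Its wildtype rise was at least 174.9-fold, against a floor of 3 counts over the group, and its mutant rise was 29.0-fold. Scara5, a ferritin-binding scavenger receptor, had 0 and 1 counts in the wildtype and 3 and 10 in the mutant lines at day 2, and reached 20.1 and 20.3 CPM in the wildtype and 15.2 and 8.06 CPM in the mutant lines. Its rise was 1891-fold in the wildtype lines (95% exact interval 339.4 to 74700) and 74.95-fold in the mutant lines. Fitted differences of these genes depend on the prior count and are not given.

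**Figure D2:**
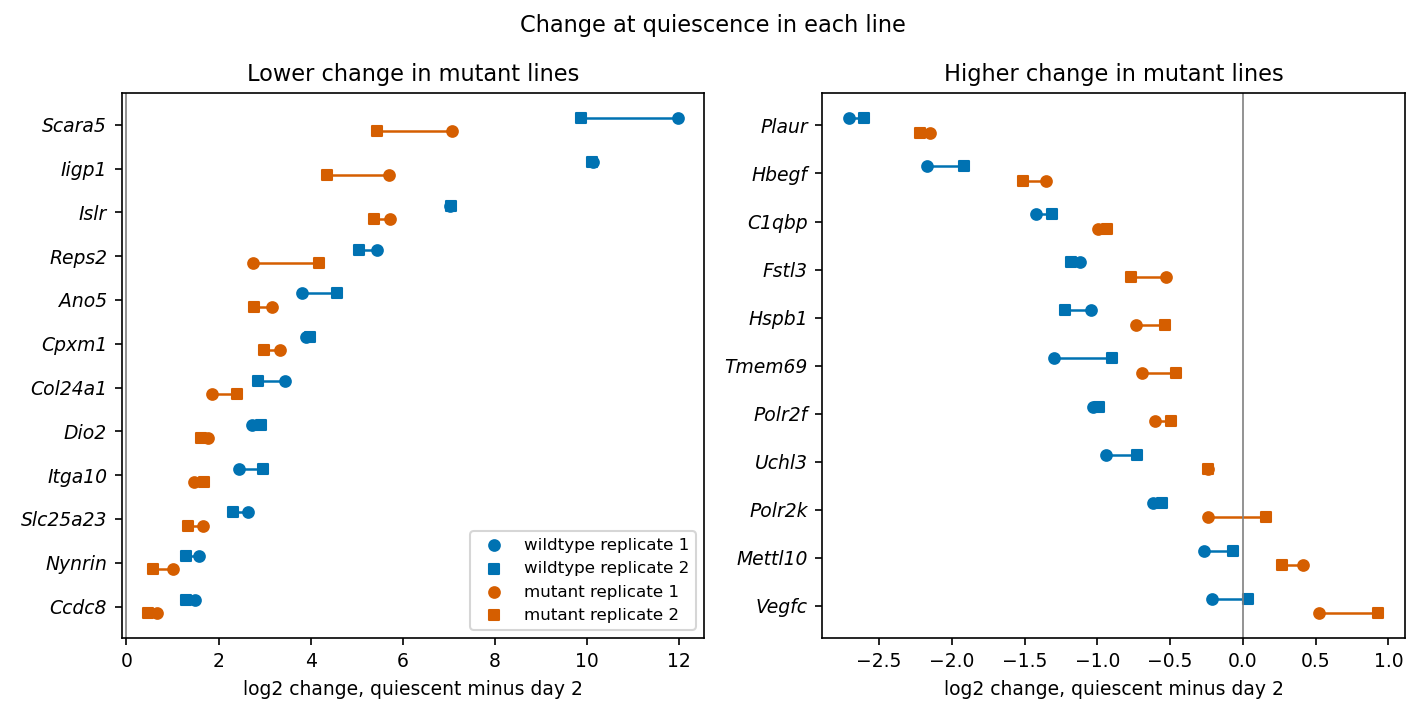
The log2 change of each line (quiescent minus day 2, prior count 0.5) for the genes named in each direction; points are the 2 lines of each genotype. Mutant and wildtype points do not overlap in any of them because the naming rule required it.

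Of the 12 genes named for a higher change in the mutant lines, 10 had a change below 0 in both genotypes, which the naming rule then makes a smaller fall in the mutant. The mutant was lower at day 2 in 12 of these 12 and in 1196 of the 1278 genes that met the rule in this direction. The edgeR adjusted p of the genotype difference was 1 for each.

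Hbegf, a ligand of the EGF receptor, fell from 149 to 33.2 and from 157 to 41.8 CPM in the wildtype lines and from 134 to 52.5 and 148 to 51.8 CPM in the mutant lines. Both mutant lines ended above both wildtype lines, and the log2 difference was 0.60 (SE 0.17), with a gap of -0.12 (SE 0.12) at day 2 and 0.47 (SE 0.12) in quiescence. Plaur, the urokinase receptor, fell from 171 to 26.2 and 174 to 28.6 CPM in the wildtype lines and from 135 to 30.4 and 151 to 32.5 CPM in the mutant lines. Its mutant lines were below both wildtype lines at day 2 and above both in quiescence, and the log2 difference was 0.47 (SE 0.15).

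Vegfc, a growth factor of lymphatic vessels, went from 6.91 to 5.97 and 6.19 to 6.35 CPM in the wildtype lines and from 5.43 to 7.81 and 4.41 to 8.40 CPM in the mutant lines. By edgeR it rose in the mutant lines (log2 change 0.73, adjusted p = 0.01073) and was not called in the wildtype lines (-0.09, adjusted p = 0.7239), and the log2 difference was 0.81 (SE 0.26). Fstl3, an activin-binding protein, fell in both genotypes with a log2 difference of 0.50 (SE 0.17). Polr2f, an RNA polymerase subunit, fell from 78.4 to 38.4 and 71.5 to 36.0 CPM in the wildtype lines and from 58.2 to 38.4 and 56.6 to 40.1 CPM in the mutant lines, lower in the mutant lines at day 2. Polr2k, another such subunit, fell in the wildtype lines and had a mutant change of -0.03 that was not called (edgeR adjusted p = 0.8819). The log2 differences of the others were 0.60 (SE 0.19) for the ubiquitin hydrolase Uchl3, 0.52 (SE 0.19) for Tmem69, 0.41 (SE 0.15) for the mitochondrial protein C1qbp, 0.50 (SE 0.18) for the methyltransferase Mettl10 and 0.49 (SE 0.18) for the small heat shock protein Hspb1. With day 8 alone as the quiescent state the value of Hspb1 was 0.0018 and that of Fstl3 0.16, and with day 12 alone that of Hbegf was 0.27 and that of Plaur 0.19. Without wildtype replicate 1 the value of Tmem69 was 0.31, and without mutant replicate 2 that of Polr2k was 0.36.

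**Figure D3:**
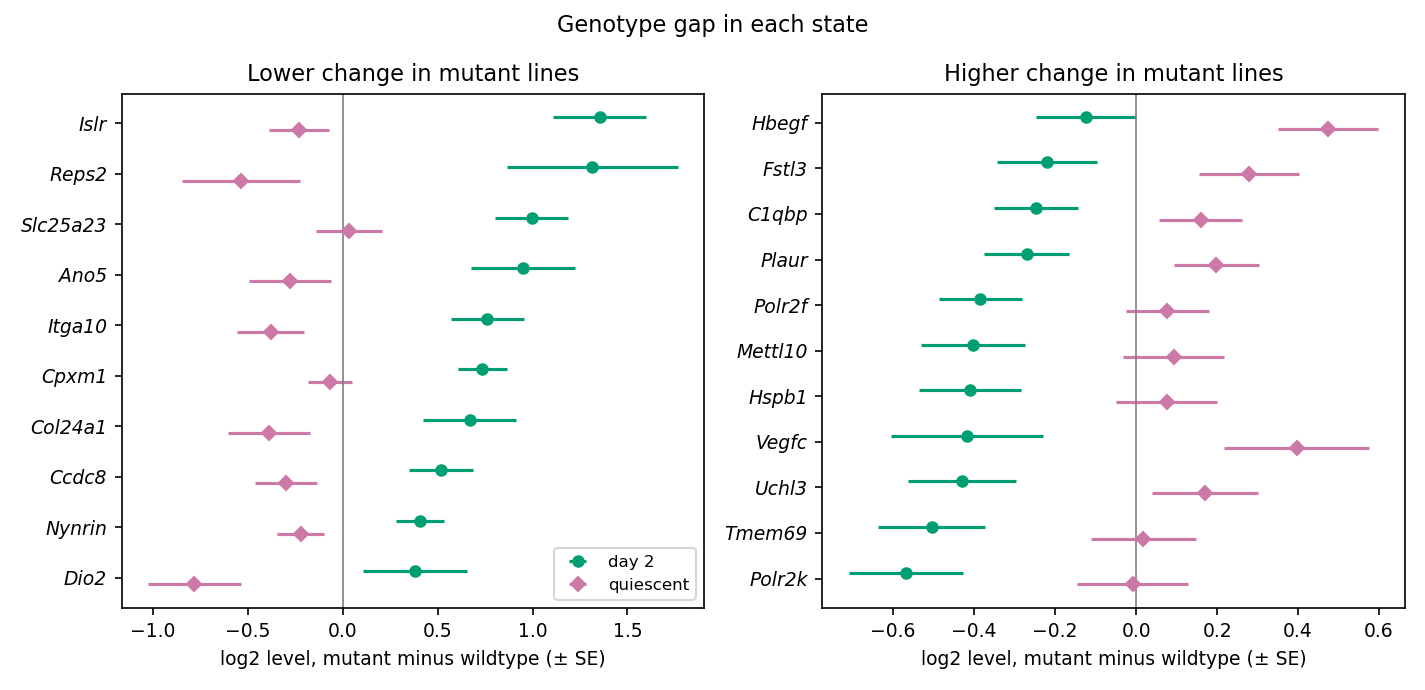
Genotype gaps in level (log2, mutant minus wildtype, with SE bars) at day 2 and in quiescence for the named genes; Iigp1 and Scara5 are left out for their 0 to 1 counts in wildtype cells at day 2. Gaps at day 2 lie above 0 in the genes with a lower change and below 0 in those with a higher change.

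Levels on the single days were scaled over the 16 libraries. Islr stood at 101 and 69.2 CPM at day 8 in the wildtype lines and at 61.7 and 80.5 CPM in the mutant lines, which overlapped. At day 10 it stood at 128 and 119 CPM against 103 and 139 CPM, overlapping again, with mutant 2 the highest. At day 12 it stood at 142 and 159 CPM against 125 and 122 CPM, and the groups were apart. Hbegf stood at 37.1 and 40.3 CPM at day 8 in the wildtype lines and at 51.4 and 52.3 CPM in the mutant lines, and at 33.9 and 33.1 CPM against 61.8 and 51.5 CPM at day 10. At day 12 the wildtype lines, at 30.1 and 54.2 CPM, overlapped the mutant lines, at 40.1 and 52.9 CPM.

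**Figure D4:**
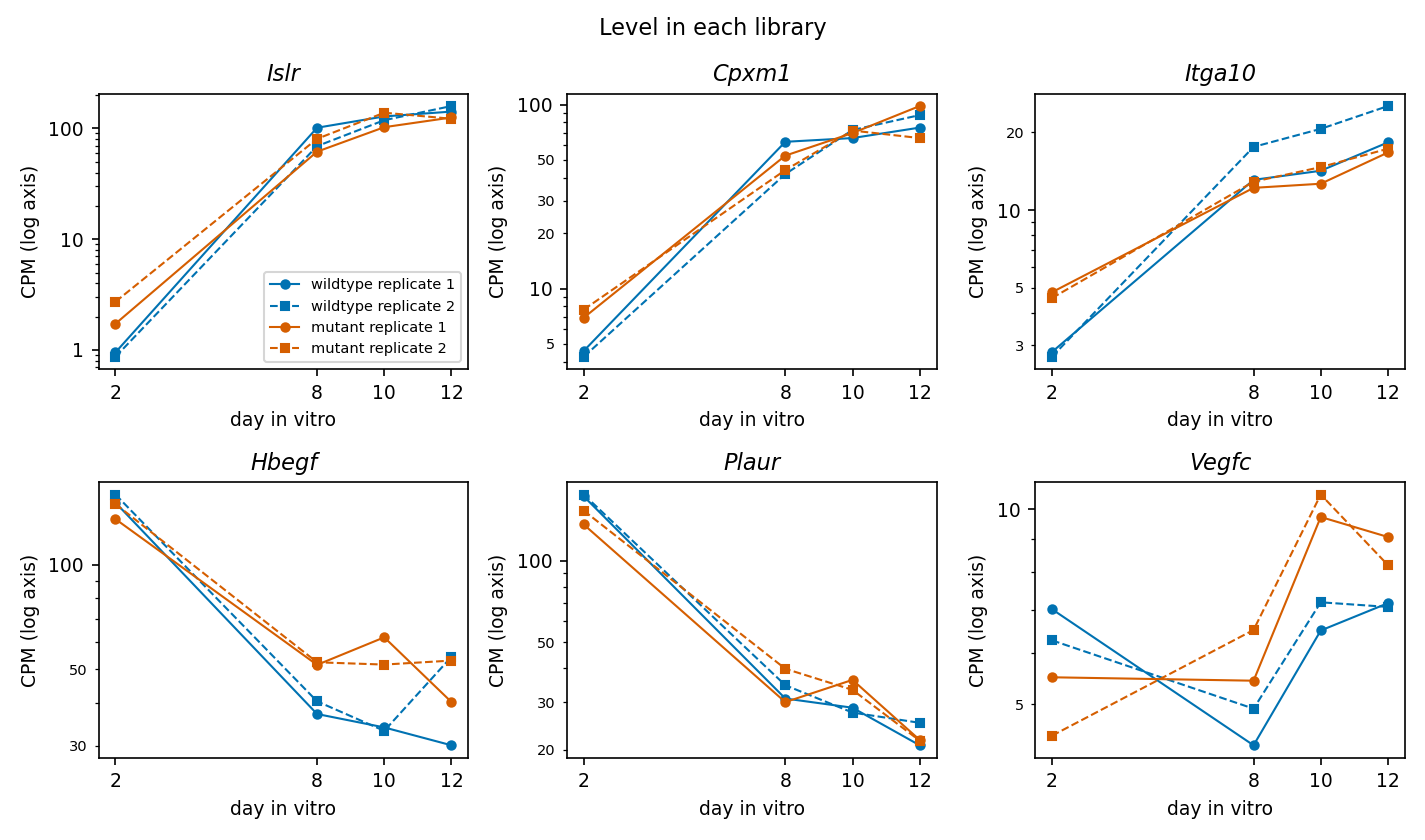
CPM (log axis) of 6 named genes in each of the 16 libraries against day in vitro; colour marks genotype, and marker and line style mark the replicate. Islr, Cpxm1 and Itga10 start higher in both mutant lines, and Plaur starts lower in both.

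Gene lists are described by their medians beside the all-gene median difference of 0.01. Among all genes, 12.6% had lines that did not overlap above and 11.7% below. Genes called as rising in both genotypes had a median difference of -0.09, and those called as falling in both had 0.09. Lists made mostly of risers or of fallers are to be read beside these values too. In any list, 0 members were called for the difference. Genes for making ribosomes had smaller median falls in the mutant lines. All 36 cytoplasmic ribosomal protein genes had a higher change in the mutant, with a median difference of 0.24 and 26 whose lines did not overlap. That median was 0.13 to 0.31 with 1 line left out (0.13 without wildtype replicate 1) and 0.05 with day 8 alone as the quiescent state. By edgeR 36 fell in the wildtype and 26 in the mutant lines, and the median changes were -0.74 and -0.54 in the wildtype and -0.44 and -0.35 in the mutant lines. The median gap in level was -0.17 at day 2 and 0.06 in quiescence. Rpl23, of the large subunit, went from 1331 to 978 and 1196 to 926 CPM in the wildtype lines and from 999 to 887 and 1031 to 1077 CPM in the mutant lines.

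Of 23 ribosome biogenesis and translation factor genes, 21 had a higher change in the mutant, with a median of 0.18 (0.13 to 0.30 with 1 line left out, 0.30 without wildtype replicate 2, and 0.08 with day 8 alone) and 7 not overlapping. Dkc1, of the RNA pseudouridylation complex, fell from 123 to 24.4 and 105 to 26.8 CPM in the wildtype lines and from 101 to 26.3 and 73.5 to 29.1 CPM in the mutant lines, a log2 difference of 0.50 (SE 0.22) that was 0.23 without mutant replicate 2. Oxidative phosphorylation genes had 21 of 24 higher, with a median of 0.17 and 11 not overlapping, a median of 0.10 without wildtype replicate 1, and a median of -0.01 with day 8 alone as the quiescent state. Cycs, the electron carrier cytochrome c, fell from 383 to 119 and 311 to 124 CPM in the wildtype lines and from 308 to 124 and 290 to 142 CPM in the mutant lines. Housekeeping genes lay on the same side, with a median of 0.12 and 11 of 15 higher, and of -0.04 without wildtype replicate 1.

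Cell division genes fell in both genotypes, with slightly smaller median falls in the mutant lines. All 25 genes of G2 and mitosis and all 27 of S phase and DNA replication were called as falling in each genotype, and 24 and 23 of them had a higher change in the mutant, with medians of 0.20 and 0.14 and with 5 and 10 not overlapping. With day 12 alone as the quiescent state these medians were -0.02 and -0.04. Without wildtype replicate 1 the median of the G2 and mitosis genes was 0.10, and without mutant replicate 1 that of the S phase genes was 0.06. Cdk1, the mitotic kinase, went from 226 to 41.6 and 202 to 46.6 CPM in the wildtype lines and from 176 to 45.2 and 193 to 52.2 CPM in the mutant lines. The mutant lines were lower at day 2, and quiescent levels overlapped. Tk1, a thymidine kinase used in DNA synthesis, had a log2 difference of 0.36 (SE 0.16). With a single day as the quiescent state its value was 0.05 at day 8, 0.63 at day 10 and 0.08 at day 12.

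The matrix lists had medians below 0 that depended on single lines. Collagens outside the fibrillar group had 15 of 17 lower in the mutant, with a median of -0.28 and 3 not overlapping, and a median of 0.02 without wildtype replicate 1 and -0.05 without mutant replicate 2. Fibrillar collagens had 7 of 11 lower and a median of -0.04, which was 0.07 without wildtype replicate 1. Col3a1, of skin and vessel fibrils, rose from 345 to 7015 and 387 to 8441 CPM in the wildtype lines. In the mutant lines it rose from 497 to 8966 and 550 to 8454 CPM. Both mutant lines were higher at day 2, and in quiescence mutant 2 and wildtype 2 were nearly equal. The gap of Col3a1 was 0.52 (SE 0.13) at day 2 and 0.17 (SE 0.12) in quiescence. Its log2 difference was -0.34 (SE 0.18), and that of Col14a1, a fibril-associated collagen that also rose in both, was -1.22 (SE 0.71), or -0.77 without wildtype replicate 1. Matrix proteases and inhibitors had 20 of 27 lower and a median of -0.13 (-0.07 without mutant replicate 2), with 7 not overlapping below and 2 above. Mmp19, a metalloproteinase, rose from 13.5 to 59.8 and 11.1 to 63.3 CPM in the wildtype lines and from 16 to 59.9 and 17.2 to 57.8 CPM in the mutant lines. Its log2 difference was -0.51 (SE 0.18), or -0.31 without wildtype replicate 2. Proteoglycans had 18 of 25 lower and 2 not overlapping, with a median of -0.12 that was -0.02 without wildtype replicate 2 and -0.02 with day 8 alone. Without wildtype replicate 1 the medians of the elastic fibre (-0.09), basement membrane (-0.10) and matrix crosslinking (-0.06) lists became 0.05, 0.14 and 0.04, and that of the matrix glycoproteins (-0.07) became -0.01. Ctgf, a matricellular protein, fell in both with a log2 difference of 0.58 (SE 0.23), or 0.34 without mutant replicate 2.

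The imprinted and Wnt lists, like the matrix protease and proteoglycan lists, had medians below 0 in all 16 alternatives. The size of these medians depended on single lines. The imprinted gene network, a set of co-expressed growth regulators, had 13 of 16 lower in the mutant and a median of -0.15, which was -0.05 without mutant replicate 2, with 2 not overlapping below, a share near that of all genes. Cdkn1c, a cyclin-dependent kinase inhibitor, rose from 24.7 to 71.6 and 23.0 to 53.2 CPM in the wildtype lines and from 21.1 to 48.4 and 22.6 to 34.7 CPM in the mutant lines. Both mutant lines were lower in quiescence, and the log2 difference was -0.46 (SE 0.26), or -0.18 without mutant replicate 2. Meg3, an imprinted non-coding RNA, rose in both with overlapping changes, of 1.77 and 0.98 in the wildtype lines and 1.03 and 0.85 in the mutant lines. Its log2 difference of -0.44 (SE 0.25) was -0.04 without wildtype replicate 1. Other imprinted genes had 24 of 32 lower, a median of -0.06 (-0.04 without wildtype replicate 1) and 7 not overlapping below. The Wnt pathway had 22 of 27 lower, a median of -0.23 and 4 not overlapping, and its median was -0.03 without wildtype replicate 1 and -0.09 without mutant replicate 2. Dkk3, a secreted Dickkopf family member, rose from 76.6 to 395 and 72.2 to 430 CPM in the wildtype lines and from 85.1 to 410 and 122 to 376 CPM in the mutant lines. Its log2 difference was -0.55 (SE 0.22), or -0.20 without mutant replicate 2. The IGF axis had 14 of 20 lower and a median of -0.13, which was 0.03 without wildtype replicate 1. Igfbp2, an IGF binding protein, rose in both with a log2 difference of 0.50 (SE 0.25), or 0.14 with day 8 alone.

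**Figure D5:**
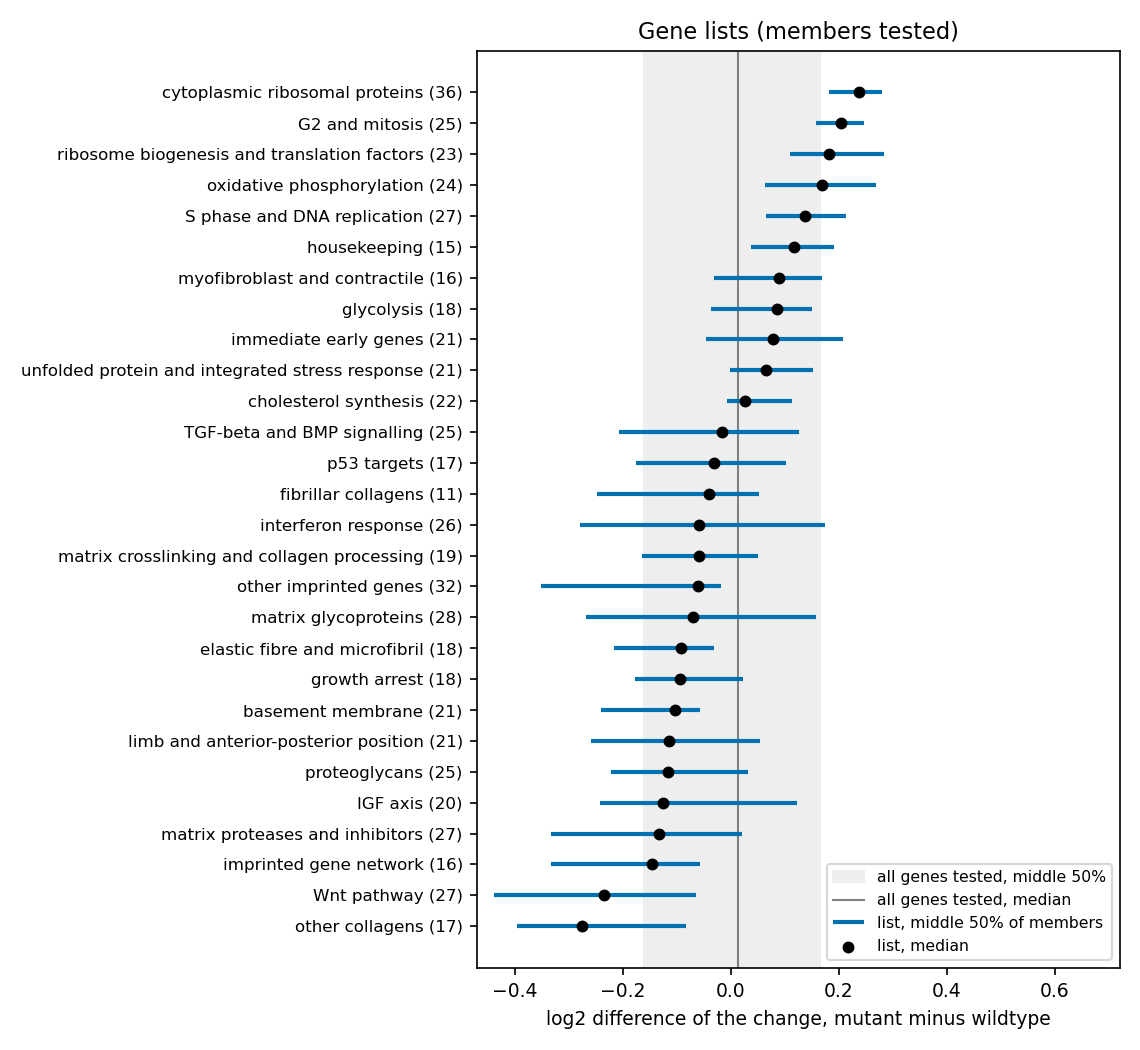
Median log2 difference of the change (mutant minus wildtype, x axis) for each gene list, with bars over the middle 50% of members and the number of members tested in brackets; the grey band and line give the same for all genes tested. The ribosomal protein median lies at 0.24 and that of the other collagens at -0.28, on either side of the all-gene median.

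The interferon response list had 14 of 26 lower and a median of -0.06 (0.02 without mutant replicate 2), with 21 genes called as rising in the wildtype and 22 in the mutant lines. TGF-beta and BMP signalling had a median of -0.02 and cholesterol synthesis of 0.02, with the same sign in 14 and 10 of 16 alternatives. Growth arrest genes had a median of -0.10, which was 0.17 without mutant replicate 2, and 15 of the 18 rose in each genotype. The medians farthest from that of all genes were those of macrophage, cartilage and adipocyte markers, and each of them changed sign without 1 of the lines. Macrophage genes had a median of 0.42, but -0.10 without wildtype replicate 2, and 0 of 18 were called for the response in either genotype. Cartilage genes had a median of 0.44, but -0.34 without mutant replicate 2. Adipocyte genes had a median of -0.40, but 0.0011 without wildtype replicate 1. Bone-forming cell genes had a median of -0.25 with 8 of 11 lower, which was -0.14 without mutant replicate 1 and -0.54 without wildtype replicate 2. In bulk cultures, fewer cells of a type and less RNA per cell cannot be told apart.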

How the data were processed

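RNA was measured in 16 libraries of 4 lines. The authors deposited raw read counts for each gene. The submitters' processing notes name HTSeq 0.6.1p1, Bowtie2 2.2.9, TopHat2 2.1.1 and bcl2fastq 2.18, and the build mm9. Libraries were stranded, per the labels' protocols. As for the annotation and the strand setting, they are not given in the sources used here; thus overlapping genes or near-identical copies are uncertain. Columns of other samples numbered 0.

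The day 8, 10 and 12 counts of each line, repeat harvests, were summed, giving 8 summed libraries in 4 groups. Genes were kept by filterByExpr and tested in edgeR 4.0.16 (R 4.3.3; TMM, robust quasi-likelihood, 4 residual degrees of freedom), with Benjamini-Hochberg adjusted p called under 0.05. limma 3.58.1 and DESeq2 1.42.0 were alternatives. The scripts were tested on simulated data. SE is the absolute log2 value over the square root of F, and per-line changes used a prior count of 0.5.

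Named genes were Plagl1, any gene called by edgeR or DESeq2, the 12 in each direction with the smallest unadjusted p among genes with non-overlapping lines and at least 5 CPM in 1 group (predicted genes left out), and up to 3 per list; 1 gene that met this rule is not reported here. The last genes named had an unadjusted edgeR p of 0.0102 (lower) and 0.021 (higher); the next in order were Pik3ip1 at 0.0125 and Tomm5 at 0.0213. The members and lists were chosen with earlier results of these data known. The day 2 and quiescent libraries of a line come from the same line, and their deviations correlated weakly across genes (0.16 in the wildtype, 0.21 in the mutant lines). By contrast, limma-voom, fitted with the line as a random block, estimated a correlation of -0.07 between libraries of a line. In level, lines with the same number in the 2 genotypes did not deviate together (-0.04 at day 2, 0.002 in quiescence). For the change, the correlation of their deviations was 0.095. Replicates of a group were no copies of each other (chi-square of their counts over its degrees of freedom, 32.4 to 69.6). Intervals and floors cover counting error only.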

Additional observations from a re-analysis of the deposited data

How the results depend on the processing

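The count of 0 genes called for the difference held under 15 of the 16 alternatives; DESeq2 called 1. The 265 genes at an unadjusted p under 0.05 became 763 with day 10 alone, 154 with day 12 alone, 171 with at least 1 CPM in at least 2 libraries and 160 by limma-voom, and 151 without wildtype replicate 1, 440 without mutant replicate 2 and 814 without mutant replicate 1. Upper quartile scaling moved the share of genes with a higher change from 52% to 45.7%. With the line as a replicate block, 0 genes were called (263 at an unadjusted p under 0.05; smallest adjusted p 0.563, Islr), and 7472 and 6633 genes responded in the wildtype and mutant lines. With the replicate number as a replicate block, 0 were called, with 305 at an unadjusted p under 0.05. Responding genes in the wildtype numbered 7486, and 4185 without wildtype replicate 1 to 7755 without mutant replicate 1. In the mutant they numbered 6633, and 4559 to 5970 with 1 line left out. The slope was 0.68 to 0.81 with 1 line left out and 0.89 with the CPM filter. The 24 genes named by their p, and Plagl1, kept their direction in all 16 alternatives. This is little check on them. Their line changes did not overlap between genotypes, for the 24 by the naming rule, so leaving out a line could hardly reverse a direction. The other alternatives reuse the same counts. The major-axis slope and the counts at an unadjusted p were chosen after seeing the data.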

Other observations

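With a single quiescent day in place of the sum, the values were as follows. Cytoplasmic ribosomal proteins had a median difference of 0.05 with day 8 alone as the quiescent state and of 0.38 with day 10 alone. Of the genes at an unadjusted p under 0.05, those with a higher change in the mutant were 522 of 763 with day 10 alone, 92 of 244 with day 8 alone and 41 of 154 with day 12 alone. The 3 days share the day 2 libraries and hold 1 library per line, and a difference between days was not tested.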
